A study of Caenorhabditis elegans with 2 samples.

Results

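The histone genes of Caenorhabditis elegans were examined in a chromatin immunoprecipitation sequencing (ChIP-seq) experiment on the RNA-binding protein RBM-26. They were taken as every protein-coding gene of the Ensembl annotation of WBcel235 (the assembly also called ce11) whose symbol begins with his-, which gave 72 of the 19973 protein-coding genes on the nuclear chromosomes. Whole young adults of strain OP801 were used, 66 hours after synchronisation by L1 starvation. They carried the integrated transgene wgIs801, in which B0336.3 (rbm-26) is fused to TY1, EGFP and 3xFLAG, together with unc-119(+) in an unc-119(tm4063) background. Chromatin was sonicated to 200 to 800 bp and precipitated with an antibody against GFP, in 2 biological replicates of 1 group. The tagged protein came from 1 transgenic strain, the labels name no change to its own rbm-26 gene, and whole animals mix germline and somatic cells. No second group was analysed here, so the results are counts and peak values with no test between conditions.

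Histones are the proteins around which DNA is wrapped in nucleosomes. The core histones H2A, H2B, H3 and H4 form the nucleosome particle, and linker histone H1 binds the DNA between particles. Most core histone genes are replication-dependent: they are expressed when DNA is copied, most lack introns, and their mRNAs end just after a conserved stem-loop instead of in a poly(A) tail. Variants such as H3.3 are incorporated outside DNA replication as well. In C. elegans the core genes lie in small clusters, mostly as divergent H2A/H2B and H3/H4 pairs. In humans the counterparts of RBM-26 are RBM26 and RBM27, proteins linked to the decay of polyadenylated nuclear RNA. In an experiment of this kind, a peak marks chromatin that was recovered with the tagged protein, directly or through RNA or other proteins.

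By the annotated products, the 72 genes were 17 for H2A, 16 for H2B, 15 for H3, 16 for H4, 5 for H3.3, the H1 gene his-24, and 2 short genes with a histone domain, his-39 and his-73. They fell into 20 clusters when genes with starts within 5000 bp were joined. There were 31 divergent neighbouring pairs, with 227 to 368 bp between the genes (median 258 bp). Of these pairs 16 were H2A/H2B, 14 were H3/H4 and 1, his-67/his-68, was H2A/H4. Many copies are identical in sequence: 35 of the 72 genes had at least 1 copy of exactly the same sequence, and the 72 genes had 51 distinct sequences. Only 8 had an annotated UTR, so most gene records run from the start codon to the stop codon, and a summit just past the end of a record can still lie in transcribed sequence.

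The 3′ stem-loop shows how alike the genes are. A stem-loop of 16 bases was searched on the gene strand within 200 bp after the coding end, as GG, 3 pyrimidines, T, any 4 bases, A, 3 purines and CC. It was found in 61 of 72 histone genes (84.7%), a median of 44 bp after the coding end (34 to 61 bp). Over all 19973 protein-coding genes it was found in 66 (0.33%), and these include the 61 histone genes. The capitals mark the whole stem-loop in the 2 commonest forms, the first found at 51 genes of chromosomes II, IV, V and X, his-59, his-60, his-64 and his-65 among them, and the second at 4 genes of chromosome V (his-20, his-22, his-52 and his-54).
Stem-loop of his-59 and 50 other genes: GGCCCTCTTTAGGGCC
Stem-loop of his-52 and 3 other genes: GGCCCTCTTAAGGGCC

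Stretches of the RefSeq sequence of WBcel235, given on the + strand, show the loci that the results turn on. The first is the 256 bp between the divergent genes his-60 (H4) and his-59 (H3) at chrIV:7487993-7488248, with capitals on the 11 bases centred on a conservative summit. The second is the 238 bp between his-28 (H4) and his-27 (H3) at chrV:8889800-8890037, which has an identical copy between his-50 and his-49 and no summit in any list within 1000 bp of these starts. The third is the 101 bp centred on the summit upstream of his-37 (H4) at chrV:9546990-9547090. In these last 2, capitals mark TATAAA or its reverse complement TTTATA, the sequence of a TATA box.
his-60/his-59: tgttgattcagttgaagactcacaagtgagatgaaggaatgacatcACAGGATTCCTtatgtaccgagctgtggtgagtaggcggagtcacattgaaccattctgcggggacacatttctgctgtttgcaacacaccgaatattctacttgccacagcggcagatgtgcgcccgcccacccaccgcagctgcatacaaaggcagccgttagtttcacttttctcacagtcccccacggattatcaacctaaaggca
his-28/his-27: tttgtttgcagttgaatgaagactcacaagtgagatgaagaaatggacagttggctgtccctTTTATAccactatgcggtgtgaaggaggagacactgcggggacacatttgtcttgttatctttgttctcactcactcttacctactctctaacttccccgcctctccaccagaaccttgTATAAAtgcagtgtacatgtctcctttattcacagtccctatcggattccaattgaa
his-37 summit: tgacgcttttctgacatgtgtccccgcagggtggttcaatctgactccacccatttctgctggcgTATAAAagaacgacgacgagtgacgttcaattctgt

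The authors deposited peak lists, not reads, so the depth is unknown. Thresholded lists hold the rows that passed on irreproducible discovery rate (IDR), a measure of how well peaks repeat. There was 1 for each replicate and, in a conservative and a wider form, 1 made for the series. Longer ranked lists hold rows that did not reach the threshold as well. On the nuclear chromosomes the conservative list held 3035 rows, with 2376 in replicate 1 and 1960 in replicate 2. The ranked list made between the replicates held 38703 rows, and a ranked summit is a summit of that list unless another is named. The signal of a row is the authors' enrichment value for that peak and is comparable only within a list. A gene is said to have a summit, or to be called, where the highest point of a row lies within 1000 bp of its own annotated start, so a divergent pair can share a summit. Distances are negative upstream of the start.

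Of the 72 histone genes, 14 (19.4%) had a conservative summit within 1000 bp of the start. Over all protein-coding genes the share was 8.70%. The genes were his-37, his-74, his-67, his-68, his-59, his-42, his-60, his-65, his-66, his-63, his-64, his-72, his-62 and his-61. They shared 14 distinct summits in 12 regions, 8 of which served more than 1 histone gene, and they lay in 8 of the 20 clusters, so the 14 genes are not 14 independent observations. With each summit given only to its nearest protein-coding start, 11 histone genes (15.3%) and 6.93% of all protein-coding genes were called. Counting summits inside the gene or within 500 bp of either end gave 12 histone genes (16.7%), against 12.7% of all protein-coding genes, a closer pair of shares.

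Each class but H1 and the 2 histone-domain genes had called members. Called genes numbered 4 of 16 for H4 (his-37, his-60, his-64, his-67), 3 of 15 for H3 (his-42, his-59, his-63), 3 of 17 for H2A (his-61, his-65, his-68), 2 of 16 for H2B (his-62, his-66) and 2 of 5 for H3.3 (his-72, his-74). By chromosome they were 8 of 22 on IV, 2 of 27 on V, 2 of 2 on I, 1 of 14 on II, 1 of 3 on III and 0 of 4 on X. The median distance from a histone gene start to the nearest conservative summit was 33306.5 bp, against 19052 bp over all protein-coding genes. The order was not stable across lists: it was 33638 against 23140 bp in replicate 1, 18883 against 27861 bp in replicate 2 and 17924.5 against 17169 bp in the wider list.

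The highest signal at a histone gene was upstream of his-37, an H4 gene with an annotated length of 503 bp on the + strand of chromosome V. Its summit at base 9547040 lay 65 bp before the start, with a signal of 329 and rank 140 in the conservative list, whose median signal was 135. The signal was 178 in replicate 1 and 146 in replicate 2, with the summits 33 and 11 bp away from the conservative one. Both replicates thus placed the peak just upstream of his-37, on the sequence printed above, where TATAAA begins 15 bases after the summit. All 50-mers within 200 bp of the summit occur once in the genome. The same summit was the nearest conservative one to the other genes of the cluster, his-41 (H2B, 1504 bp) and his-35 (H2A, -1752 bp), which were outside the 1000 bp.

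The summits of the 4 genes his-61, his-62, his-60 and his-59 covered a whole core set (H2A, H2B, H4 and H3) within 2826 bp of chromosome IV. At the 3′ end of his-59 the signal was 209, with 90.8 in replicate 1 and 130 in replicate 2. This summit lay in the coding exon, 390 bp after the start and 20 bp before the annotated end. In the coding exon of his-60 a summit with a signal of 184 lay 210 bp after the start, with 110 in replicate 1 and 49.4 in replicate 2. A weaker one, 79.6, lay in the gap between these divergent genes, 52 bp before the start of his-60, in the same region. The genes his-59 and his-60 thus had a thresholded row in each replicate. His-62 had a summit of 124 in its coding exon, 250 bp after the start, with 70.3 in replicate 2 and, below the IDR threshold, 51.2 in replicate 1. His-61 had summits of 113 in its coding exon and 86.3 at 28 bp past its end, with no thresholded row of either replicate at these 2 summits.

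Another divergent pair with a summit in the gap was his-67 (H4) and his-68 (H2A) on chromosome I. The signal was 225 in the conservative list, at -208 bp from his-67 and -161 bp from his-68. Replicate 1 had 123 in the gap. The thresholded row of replicate 2, with 81.9, had its summit inside his-67, 379 bp from the conservative one. At the gap itself replicate 2 had a ranked row of 99.7, with its summit 1 bp away and a −log10 IDR of 0.76, below the 2.0 that is the lowest value of a thresholded row. Both genes therefore count as near a summit in both replicates, but at different places. Of the 31 divergent gaps 2 held a conservative summit, and 3 held a ranked one, his-35/his-41 being the one added. None of the 18 convergent gaps, 577 to 2170 bp long, held a summit of either list. In 17 of the 31 divergent gaps no 50-mer occurs only once in the genome, and 16 of the 31 have an identical copy. In 8 gaps all 50-mers are unique, and these include the 3 with a ranked summit. The part of sequence uniqueness in the gap counts was not tested.

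The pairs his-66/his-65 and his-63/his-64, on chromosome IV, had their summits at the 3′ side of a gene. For his-65 (H2A) the summit was 237 bp past the annotated end and 620 bp from the start, and it was also within 1000 bp of the start of his-66 (H2B, -926 bp). Its signal was 149, with 98.3 in replicate 2 and 54.9 below the threshold in replicate 1. For his-64 (H4) the summit was in the coding exon, 6 bp before the end, with a signal of 145, with 80.6 in replicate 2 and 64.2 below the threshold in replicate 1. A weaker summit of 86.9 lay 208 bp past the end of his-63 (H3), where neither replicate passed the threshold. In replicate 1 these loci were thus present in the ranked list only.

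The H3.3 genes with a summit and his-42 each had another gene close to it. At his-74 the summit (signal 251, with 91.7 in replicate 1 and 162 in replicate 2) lay 79 bp past the end of his-74, in an exon of ccch-3 and 62 bp after the start of that gene, which is the nearest start. At his-42, an H3 gene, the summit (signal 201, with 117 in replicate 1 and 82.1 in replicate 2) lay 814 bp upstream, 20 bp from the snRNA gene F08G2.10, where 52.8% of the 50-mers within 200 bp are unique. At his-72 the summit (signal 132) lay in an intron, 125 bp from the snoRNA gene Y49E10.36. The rows at his-72 were below the threshold in the replicates, at 62.6 in replicate 1 and 80.4 in replicate 2. The replicate 1 summit lay 2 bp from the conservative one, but that of replicate 2 lay 258 bp away, 123 bp after the start. Once rows at small non-coding genes were left out (summit no more than 250 bp from one), 12 of the 72 histone genes had a conservative summit. The share of all protein-coding genes with those rows left out is not given here, so the 12 cannot be set against a background. Whether the histone gene or its neighbour accounts for these summits was not tested. The other H3.3 genes had none: the nearest summits of the between-replicate ranked list were 3998 bp from his-71 and 24088 and 25464 bp from his-70 and his-69. The nearest in any of the ranked lists were those of replicate 2, at 3865 bp from his-71, 7142 bp from his-70 and 5766 bp from his-69.

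**Figure D1:**
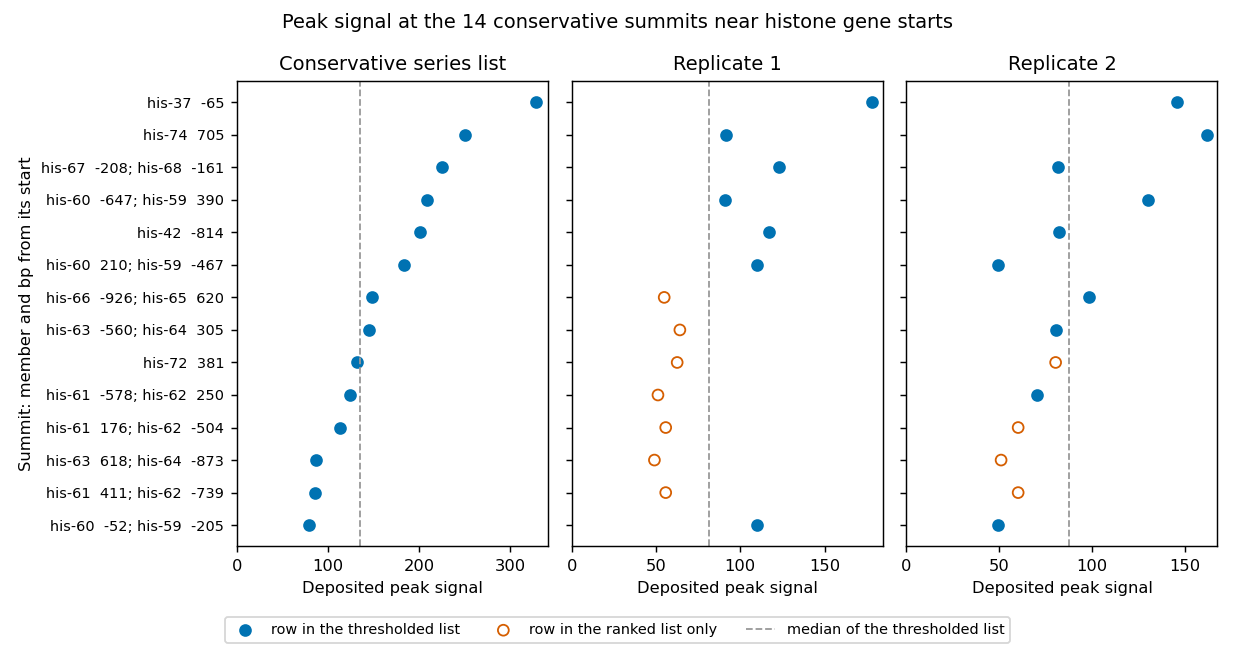
Peak signal (x axis, the authors' enrichment value, each panel on its own scale) at the 14 conservative summits near histone gene starts (y axis, the member and the bp from its start). A replicate's point is its row of highest signal that overlaps the conservative row, from the thresholded list where there is one. At the his-60/his-59 gap, rows with nearer summits (62.3 in replicate 1, 37.1 in replicate 2) are therefore not drawn. The summit of that row can lie elsewhere, as far as 379 bp away for his-67/his-68 in replicate 2, and 2 conservative summits can share 1 row. Filled points are rows of a thresholded list, open points rows found in the replicate's ranked list only, and the dashed line is the median of the thresholded list. The his-37 summit is highest in the conservative list, at 329, and the rows of lower rank are mostly open in replicate 1.

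The replicates differed in how many histone genes they held. In the list of replicate 1, 7 of 72 histone genes (9.72%) had a summit, against 6.97% of all protein-coding genes. In that of replicate 2, 14 of 72 (19.4%) had a summit, against 5.91%. The 7 genes of replicate 1 (his-37, his-42, his-59, his-60, his-67, his-68 and his-74) were all among those of replicate 2. The other 7 of replicate 2 were his-35 and his-61 to his-66, and no histone gene had a summit in replicate 1 alone. Of the 14 genes of the conservative list, 7 were thus in both replicates' lists, 6 in that of replicate 2 alone and 1, his-72, in neither. The share in replicate 1 was near its background.

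Some of the genes found in replicate 2 only were just short of the threshold in replicate 1. At the conservative summits of his-62, his-65 and his-64, the −log10 of the global IDR in the ranked list of replicate 1 was 1.67, 1.92 and 1.75. The lowest value of a thresholded row was 2.0 in each list, so these 3 rows did not reach it. In replicate 2 the same rows had 2.19, 3.13 and 2.72. His-35, an H2A gene, had its summit of replicate 2 904 bp after the start with a signal of 71.1, and its nearby row in the between-replicate ranked list reached 1.93. Its best row in the ranked list of replicate 1 was elsewhere, at -237 bp, with 1.11. The summit past the end of his-63 had 0.81 in replicate 1 and 0.62 in replicate 2. At his-72, which the conservative list holds, the row of replicate 1 had 1.75. The overlapping row of replicate 2 had 0.25, with its summit 258 bp from the conservative one.

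In the ranked lists the shares of histone genes were closer in proportion to the background. In the wider series list the share was the same as in the conservative one. A summit of the wider series list was near 14 of 72 histone genes (19.4%), against 9.44% of all protein-coding genes. A summit of the between-replicate ranked list was near 33 of 72 (45.8%), against 36.7%. The ranked list of replicate 1 gave 30 (41.7%), against 39.6%, and that of replicate 2 gave 33 (45.8%), against 37.2%. Over the ranked list the 33 histone genes had a median best signal of 76.6, against 56.4 for the other genes with a ranked summit. Over the conservative list the 14 histone genes had 175, against 156. In replicate 1 the 7 histone genes had 117, against 90.1, and in replicate 2 the order turned, with 82.0 for the 14 histone genes, against 97.8.

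**Figure D2:**
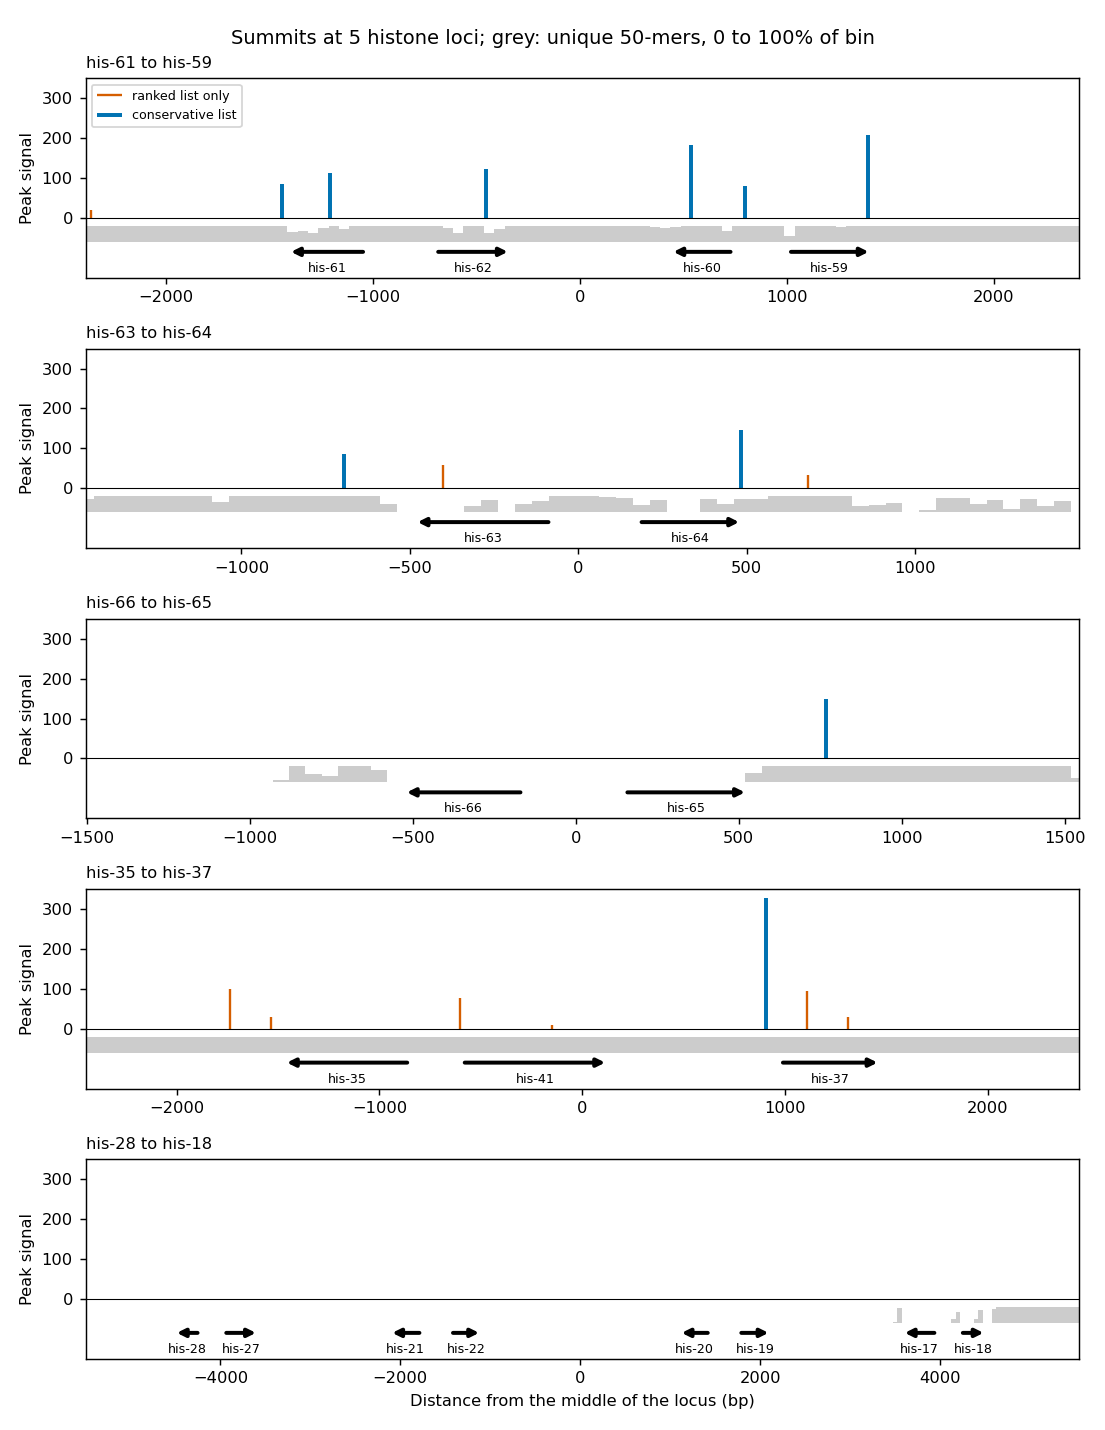
Summits at 5 histone loci, with distance from the middle of each locus in bp on the x axis and peak signal on the y axis. Blue lines are rows of the conservative list, orange lines rows of the between-replicate ranked list only, arrows the genes in their direction of transcription, and the grey band the share of 50-mers that occur once in the genome (full height is 100%). The his-28 to his-18 locus has no summit and almost no grey band, and at his-65 the summit of 149 lies in the unique sequence past the gene.

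Where the summits fell along the genes was described next. Of the 14 conservative summits 6 lay inside a histone gene, 4 past its end, 2 in a divergent gap and 2 before a start. The summit past the end of his-74 was in an exon of ccch-3, and that before his-42 lay 20 bp from the snRNA gene F08G2.10. Of the 40 ranked summits 21 lay inside a gene, 13 past an end, 3 in a divergent gap and 3 before a start. Histone genes without introns are shorter than a sheared fragment can be (his-60 is 312 bp), so a summit inside a gene and one at its start or end are hard to tell apart at this resolution. TATAAA on the gene strand was found in the 250 bases before the start in 37 of 72 histone genes (51.4%), against 22.4% of all protein-coding genes. It was found in 4 of the 14 genes with a conservative summit (28.6%) and in 33 of the other 58 (56.9%). On either strand it was found in 47 of 72 (65.3%), against 35.2%. Most histone gene records begin at the start codon, so their 250 bases can include untranslated sequence. For genes with an annotated 5′ UTR the 250 bases lie before it, so the shares can describe different places. A stem-loop was present at 11 of the 14 called genes: 11 of 61 genes with one (18.0%) and 3 of 11 without one (27.3%) had a conservative summit. Genes with identical copies share these letters, so the counts are not of independent sequences.

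Most histone gene starts lie in sequence that occurs more than once in the genome. Within 500 bp of the start, the median share of 50-mers that occur exactly once was 8.88% for the histone genes and 100% for all protein-coding genes. In 25 histone genes (34.7%) none of these 50-mers was unique, against 1.05% of all protein-coding genes. The share was under 50% in 43 histone genes (59.7%), against 2.31%. A read that lies wholly in repeated sequence cannot be placed at 1 copy, and the sources used here give neither the read length nor how such reads were treated.

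The called genes lay mostly where the sequence is unique. Among the 29 histone genes with at least 50% unique 50-mers, 11 (37.9%) had a conservative summit, against 8.87% of all protein-coding genes with starts of that kind. Among the 43 with less, 3 (6.98%) had one, against 1.74%. Those 3 are his-63, his-65 and his-66, and the background of 8 genes of 461 contains them. In the between-replicate ranked list, 20 of 29 (69.0%) and 13 of 43 (30.2%) had a summit, against 37.3% and 9.76%. The split at 50% was chosen after the data were seen. Several called genes share a cluster or a summit, so these counts are not of independent observations. Of the 35 genes with an identical copy 2 had a conservative summit, and of the 37 without one 12 had. Of the 40 ranked summits 39 lay where at least 50% of the 50-mers within 200 bp are unique. The part of sequence uniqueness in these counts was not tested.

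**Figure D3:**
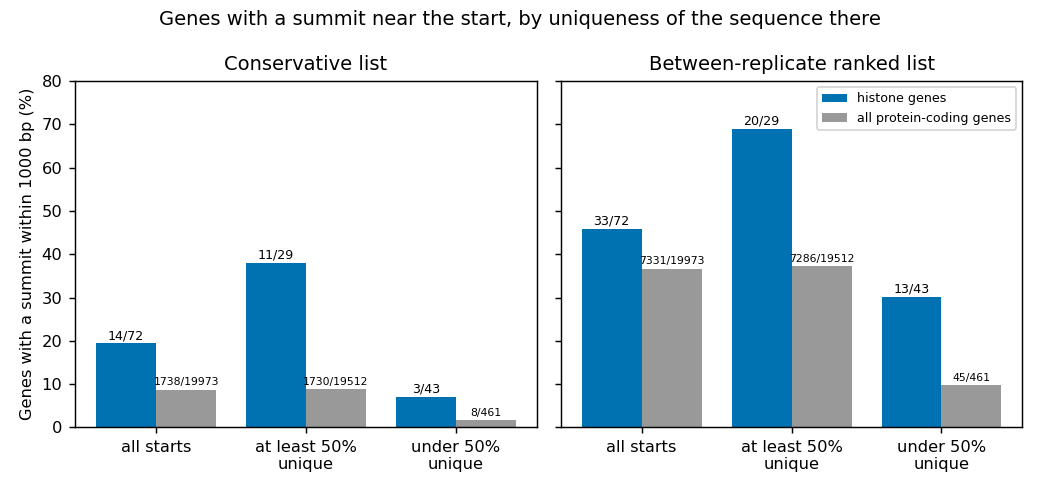
Share of genes with a summit within 1000 bp of the start (y axis, percent) for histone genes (blue, left of each pair) and all protein-coding genes (grey), in the conservative list and in the between-replicate ranked list. The pairs are all starts, starts with at least 50% unique 50-mers and starts with less, and the numbers over the bars are genes with a summit of genes tested. Among unique starts 37.9% of histone genes had a conservative summit, against 8.87% of all protein-coding genes. Histone genes of a cluster can share a summit, so the genes counted are not independent.

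**Figure D4:**
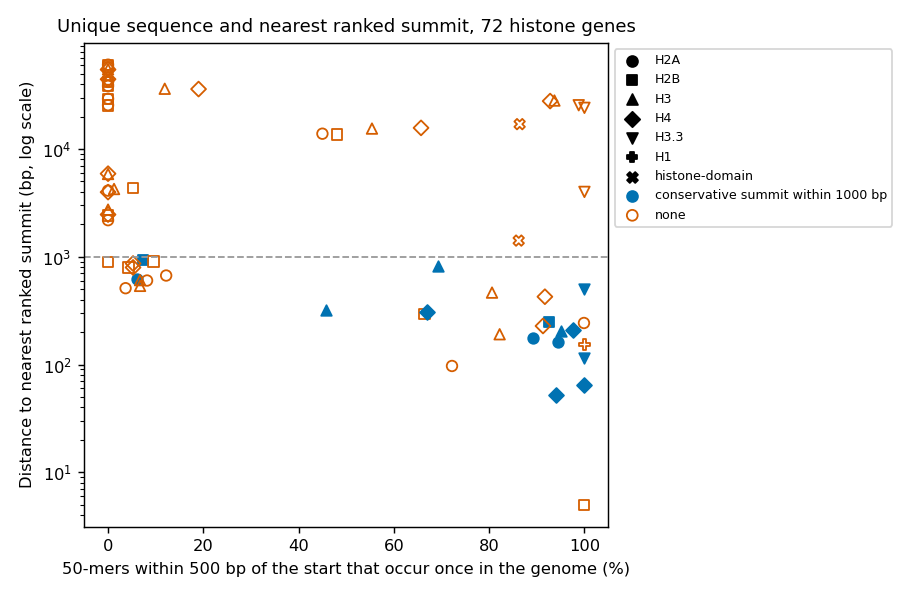
Distance from the start to the nearest summit of the between-replicate ranked list (y axis, bp, log scale) against the share of 50-mers within 500 bp of the start that occur once in the genome (x axis, percent), for 72 histone genes by class. Filled blue symbols are genes with a conservative summit within 1000 bp, open orange ones the rest, and the dashed line is at 1000 bp. The 14 genes with a conservative summit lie below the line, and most genes at 0% lie above it.

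Beside the 14 called genes, 19 had a ranked summit only. Their best ranked signals ran from 13.1 to 98.7, with a median of 58.5, and their −log10 IDR from 0.14 to 1.93. His-35 was the highest of them. His-41, beside it, had a ranked summit of 78.0 at 5 bp before the start, with 47.9 in replicate 1 and 30.3 in replicate 2. The cluster of his-4, his-3, his-2 and his-1 on chromosome V had ranked summits for all 4 genes, at most 58.5, although its nearest conservative summit was 159469 bp away. The H4 and H3 pair his-38 and his-40 on X had a ranked summit of 40.9 in the coding sequence of his-40. His-24, the H1 gene, had 58.0 at 153 bp after its start, with 35.7 in replicate 1 and 32.1 in replicate 2.

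The rest of the ranked-only genes lie beside repeated sequence. The clusters of his-45 to his-48 and his-55 to his-58 on chromosome IV have starts with 3.68 to 9.56% unique 50-mers. Their ranked summits lay 219 bp past the end of his-47 (76.6), 197 bp past that of his-45 (58.5), 127 bp past that of his-55 (13.1) and inside his-57 (72.6), all at sequence that is at least 69.9% unique. At his-45 the row had 4.58 in the ranked list of replicate 1 and 60.3 in that of replicate 2, and at his-57 it had 15.7 in replicate 1 and 67.6 in replicate 2. His-16 and his-15 shared a row of 19.8 past the end of his-16.

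The other 39 genes had no summit of the between-replicate ranked list within 1000 bp. One of them, his-73, had a row of 21.1 in the ranked list of replicate 1, 917 bp after its start. Of these, 12 are inside 2 stretches of 15287 bp on chromosome V that hold no unique 100-mer, V:8840017-8855303 with his-49 to his-54 and V:8882112-8897398 with his-19 to his-22, his-27 and his-28. His-17 and his-18, beside the second stretch, have starts that are 11.9 and 19.0% unique. Another 10 (his-9 to his-14, his-25, his-26, his-43 and his-44) lie between his-15 and his-42 on chromosome II, with 0 to 5.25% unique 50-mers at the starts. A cluster of 6 on chromosome IV (his-29 to his-34) includes his-31 (H4) and his-32 (H3), whose starts are 92.8 and 93.7% unique and whose nearest summits of the between-replicate ranked list were still 27829 and 28151 bp away. The nearest in any of the ranked lists were 26585 bp from his-31 and 26685 bp from his-32. The cluster of his-5 to his-8 and his-39 on chromosome V, 45.0 to 86.4% unique, had its nearest summit of the between-replicate ranked list 13571 bp away, and that of the ranked list of replicate 1 lay 9437 bp from his-39. The last 4 were his-69, his-70 and his-71, which are H3.3 genes, and his-73. Thus some histone genes in unique sequence had no summit either.

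A list of 28 further genes, named histone-handling genes below, was also looked at. It holds linker histone and histone variant genes as well as genes that act on histones. They were chosen for their roles, with earlier results of these data known. A conservative summit was near 8 of the 28, and near 8.70% of all protein-coding genes. Because the list was chosen with earlier results known, the 8 cannot be judged against that share. All 3 histone variant genes of this list were called. They were htz-1 (H2A.Z), with a signal of 237 at -326 bp, and hcp-3 (the centromeric H3, CENP-A), with 382 at -673 bp. The last was cpar-1, the paralog of hcp-3, with 100 at 923 bp. Of the 8 linker histone genes of the hil group, hil-5 had 149 and hil-7 had 135. Among the 5 genes tied to histone mRNA 3′ ends and the CSR-1 small RNA pathway, ego-1, an RNA-dependent RNA polymerase, had 263. The stem-loop binding protein gene cdl-1 was not called, with a ranked summit of 78.6 at -156 bp. Of the 12 chaperones and assembly factors, lin-53 (RbAp46/48) had 497 at -215 bp and unc-85 (ASF1) had 165 at -257 bp. The summit of lin-53 was higher than that of any histone gene. In the replicates lin-53 had 250 in replicate 1 and 245 in replicate 2. Each replicate's thresholded list also had a summit within 1000 bp of htz-1, hcp-3, hil-5, ego-1 and unc-85. For cpar-1 the nearest in replicate 2 lay 8861 bp away, and for hil-7 the nearest in replicate 1 lay 18116 bp away. In the wider series list the nearest to hil-5 was 32925 bp away.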

How the data were processed

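Peak lists on ce11 were deposited, per the file headers and notes, for each of the 2 replicates and for the series. Each row has a signal, the enrichment value the authors deposited for that peak. The ranked lists also have the −log10 of the global IDR, per the file headers' layout. The sources used here do not name the aligner, the peak caller, the read length or the depth. Gene starts came from Ensembl 115, symbols of the 72 histone genes were matched by sequence name to RefSeq of WBcel235 (all 72 matched; Ensembl gives 36 of them a shared symbol), and sequences from RefSeq. Summits were computed as interval start plus offset, and distances were signed by gene strand and tested on simulated data. Unique 50-mers (also 36-mers and 100-mers) were counted over both strands of the genome. The histone genes and the list of 28 were chosen with earlier results of these data known. Named genes were those with a conservative summit within 1000 bp, by falling signal, then those with one at 1000 to 2000 bp and those near a summit in a replicate's own list; others were named to account for every member. Alternatives were the wider list, each replicate's list, merged rows, the top 1000 rows, other distances and cluster gaps, and nearest starts. Python 3.11.15, numpy 2.4.6 and pandas 2.3.3 were used.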

Additional observations from a re-analysis of the deposited data

How the results depend on the processing

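Counts moved by over 1.5 times with the top rows only, with the shorter distance and with the list of replicate 1 alone. With only the 1000 rows of highest signal, 7 histone genes, 5 clusters and 5 histone-handling genes had a conservative summit within 1000 bp, and 6 histone genes had one inside or within 500 bp of an end. No share over all protein-coding genes is given for the top 1000 rows, so those counts cannot be read against a background. Within 500 bp of the start there were 9 histone genes, 5 clusters and 5 histone-handling genes. At that distance 6.29% of all protein-coding genes had a conservative summit. With a single replicate's list in place of the series list, histone genes ranged from 7 to 14, clusters from 5 to 7, histone genes counted over the gene from 6 to 9, the median distance from 18883 to 33638 bp, and histone-handling genes were 7 with either. The wider list gave a median distance of 17924.5 bp. The cause of these moves was not tested. The other alternatives, merged rows, 2000 bp, nearest start, cluster gaps and rows away from small non-coding genes included, kept each count within 1.5 times. Among the 29 histone genes in unique sequence, an alternative chosen after seeing the data, 11 were called. No paired analysis was possible because there is only 1 group. Depth per library is unknown, so what depth limits could not be given.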
